A study of Mus musculus with 8 samples.

Results

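Matrix metalloproteinases (MMPs), ADAM and ADAMTS proteases and the tissue inhibitors of metalloproteinases (TIMPs) were examined in mouse gastrocnemius, the large calf muscle. Members were the genes whose symbol is Mmp, Timp, Adam or Adamts followed by digits, with or without 1 trailing letter, and whose array row carried no other symbol. There were 61 such genes among the 14860 genes with a row of their own: 20 MMP, 4 TIMP, 25 ADAM and 12 ADAMTS genes. Adam23 had a pair of rows, of which the one with the higher mean was used. Another 4 rows carried several symbols each, among them Adam25, Adam26a and Adam34, and were left out.

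The study compared muscle from 12-week-old male C57BL/6 mice that ate chow with 0.27% ursolic acid for 5 weeks with muscle from mice on the same chow without it. Ursolic acid is a triterpenoid of apple peel and other fruit skins. Each group had 4 samples, each made of RNA pooled from 2 mice, and each was hybridised to 1 array, so spread between samples is spread between pools. The free-text description of 4 of the 8 samples (ursolic acid samples 1 and 3, control samples 2 and 4) contradicts their title and treatment field, which set the groups here.

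The active proteases among these proteins cut with a zinc ion held in their active site. MMPs cleave collagens, proteoglycans and other matrix proteins, and most are secreted as inactive precursors. ADAMs are membrane proteins, and those with an active site release growth factors, cytokines and receptors from cell surfaces. ADAMTS enzymes are secreted and cut proteoglycans, procollagens and other matrix proteins. TIMPs bind and block MMPs, and TIMP3 also blocks several ADAM and ADAMTS enzymes. In muscle this system remodels the matrix around fibres during growth and repair, and much of it is made by fibroblasts, vessel cells and leukocytes rather than by the fibres.

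A group of MMP genes lies together on chromosome 9, and the bases before their start sites are shown first because they hold the family's best known shared regulatory element. Mmp13, Mmp12, Mmp1b, Mmp3, Mmp1a, Mmp10 and Mmp8 followed each other with no other protein-coding gene between them in the RefSeq annotation, and Mmp20 and Mmp7 were a second pair of neighbours on that chromosome. Many MMP promoters are known to carry an element bound by AP-1, the dimer of Fos and Jun proteins. The 7-base element TGAGTCA, or its reverse complement TGACTCA, was searched in the 100 bases before each annotated start in the RefSeq sequences of build GRCm38.p6. It was present for 7 of these 9 genes. In all, 8 of the 37 members with a promoter sequence held it (21.6%), against 592 of 27025 genes (2.19%), the eighth member being Adam29. As 7 of the 8 are chromosome 9 MMP genes, this share describes mainly them. Mmp2, Mmp9, Adamts5 and Adamts10 were among the members without a promoter sequence and were not searched. In the sequences below, read 5′ to 3′ on the gene's strand and ending at the base before the start, capitals mark the element.
Mmp13, chr9:7272414-7272513, plus strand: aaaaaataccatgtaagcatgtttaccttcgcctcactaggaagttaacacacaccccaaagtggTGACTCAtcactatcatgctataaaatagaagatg
Mmp12, chr9:7347274-7347373, plus strand: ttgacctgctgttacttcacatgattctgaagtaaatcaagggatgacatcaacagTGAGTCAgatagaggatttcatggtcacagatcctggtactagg
Mmp3, chr9:7445722-7445821, plus strand: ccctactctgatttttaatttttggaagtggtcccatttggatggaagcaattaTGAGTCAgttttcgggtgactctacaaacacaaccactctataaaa
Mmp1a, chr9:7464041-7464140, plus strand: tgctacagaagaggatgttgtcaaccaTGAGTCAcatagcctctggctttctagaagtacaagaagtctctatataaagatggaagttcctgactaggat
Mmp10, chr9:7502242-7502341, plus strand: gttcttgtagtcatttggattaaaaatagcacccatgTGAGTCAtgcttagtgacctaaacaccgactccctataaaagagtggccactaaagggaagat
Mmp7, chr9:7691990-7692089, plus strand: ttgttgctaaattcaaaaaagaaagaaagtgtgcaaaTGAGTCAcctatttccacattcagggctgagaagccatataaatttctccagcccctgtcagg
Mmp8, chr9:7558329-7558428, plus strand, with no element: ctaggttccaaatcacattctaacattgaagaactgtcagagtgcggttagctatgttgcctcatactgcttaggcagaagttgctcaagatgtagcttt

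Mmp12 and Mmp7 each have 2 annotated starts, and the element lay before the start shown. A match of letters is a description of the sequence and does not show that a factor binds there. The array values of these genes are given below with their groups.

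The values are log2 expression values, made by the authors with RMA, and every array gave all rows. The 8 arrays had medians of 5.55 to 5.61, and their interquartile ranges ran from 1.72 in control sample 1 to 1.92 in ursolic acid sample 4. The muscle label was borne out by 7 measured markers of skeletal muscle, among them Tnnt3 and Tnni2. The rows of these 7 averaged 11.05 to 12.48 against 5.58 for the median row. No call of signal above background is given per row. The 14 ADAM genes known mainly from testis and epididymis had row means of 3.03 to 5.65, with a median of 4.0. Adam4 and Adam1a made up the top of this range, and the next highest of these rows was Adam21 at 4.93. Of the other 47 members 34 lay at or below 5.65, the mean of Adam4. That count rests on the highest testis row and is not a count of members at background. Rows differ in how well their probes bind, so row values of different genes are not read as an order of transcript levels.

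Differences in the metalloproteinase genes between the ursolic acid and control groups were small. By limma, with Benjamini-Hochberg adjustment over all 16755 rows, 0 of the 61 members and 0% of all rows were called at an adjusted p of 0.05, and the members' smallest was 0.602. At an unadjusted limma p of 0.05 there were 5 members, or 8.2%, against a background of 7.07% of all rows. The higher ones were Mmp12, Mmp2, Adamts1 and Adamts5, against 4.08% of rows called higher, and the lower one was Adamts10, against 3% called lower. No member reached an unadjusted p of 0.01, where the background was 2.05%. The share of members called was thus near that of all genes. Without control sample 3 the count of 5 became 1 (Timp1), against 5.76% of all rows. Without ursolic acid sample 4 it became 3, against 5.52% of all rows. For 60 of 61 members the 95% interval of the difference lay inside a 1.5-fold change in either direction, which held for 94.7% of all rows, and the exception was Adam4.

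**Figure D1:**
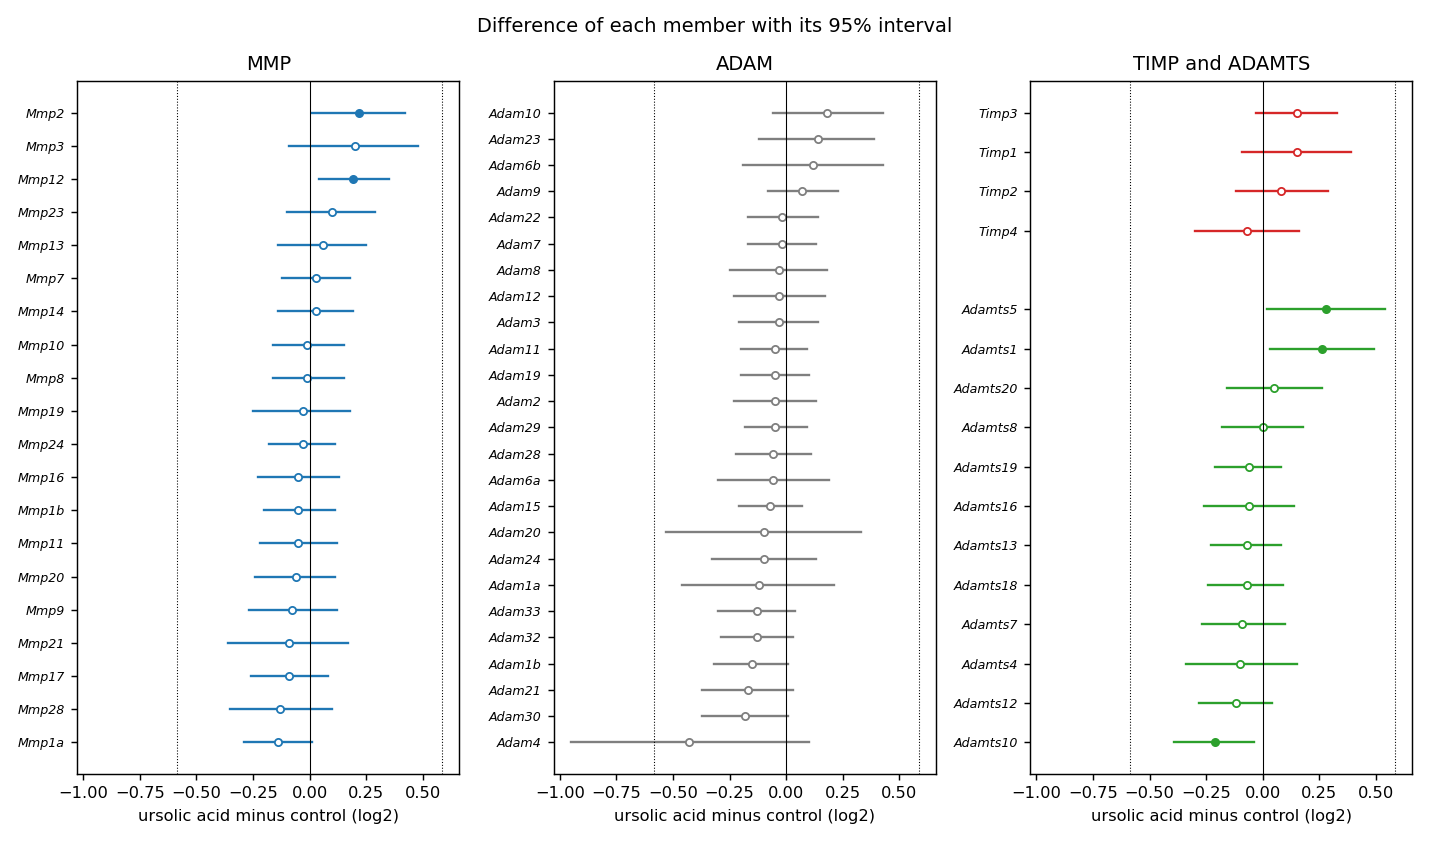
Difference in log2 expression, ursolic acid minus control, of each of the 61 members (points) with its 95% limma interval (lines), by family; filled points have an unadjusted p under 0.05 and dotted lines mark a 1.5-fold change, 0.58 on the log2 scale. All intervals but that of Adam4 lie between the dotted lines, and the 5 filled points are Mmp2, Mmp12, Adamts5, Adamts1 and Adamts10.

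Among the gelatinases, which cut denatured collagen and basement membrane collagen, Mmp2 had the higher values with ursolic acid. Mmp2, a gelatinase made mainly by fibroblasts, had 7.68, 7.40, 7.59 and 7.80 in ursolic acid samples 1 to 4, against 7.46, 7.34, 7.32 and 7.49 in control samples 1 to 4. Ursolic acid samples 1, 3 and 4 lay above every control sample, while ursolic acid sample 2 lay within the control range. The difference was 0.22 ± 0.09 (SE), or 1.16-fold, with a 95% interval of 0.01 to 0.42 and a limma adjusted p of 0.688. Mmp9, the gelatinase of neutrophils and macrophages, averaged 5.14 ± 0.13 in the ursolic acid group and 5.22 ± 0.12 in the control group (SD, n = 4 each), a difference smaller than the spread between samples.

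ProMMP2 is activated at the cell surface by Mmp14 together with TIMP2, so the rows of these partners are set beside it. Mmp14, the membrane-type MMP that performs the cut, had 5.84, 5.80, 5.94 and 5.93 in the ursolic acid group, against 5.71, 5.82, 5.95 and 5.92 in control. The ursolic acid values lay within the control range, and the difference was 0.03 ± 0.07 (SE), with a 95% interval of −0.14 to 0.19. Of the other membrane-type genes, Mmp17, whose product is held by a lipid anchor, had a difference of −0.09 ± 0.08, Mmp16 one of −0.05 ± 0.08 and Mmp24 one of −0.03 ± 0.07.

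Mmp12, the metalloelastase of macrophages, was the member with the smallest p and the only one of 61 (1.64%) whose groups did not overlap, against 4.49% of all rows (2.66% higher and 1.83% lower). It had 4.44, 4.43, 4.39 and 4.31 in ursolic acid samples 1 to 4, against 4.29, 4.28, 4.14 and 4.10 in control samples 1 to 4. All 4 ursolic acid values were above all 4 control values. The difference was 0.19 ± 0.07 (SE), or 1.14-fold, with a limma adjusted p of 0.602. Its row mean of 4.30 lay inside the range of the testis ADAM rows, so how far it stands above background is not known from these files.

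None of the other members of the chromosome 9 group reached an unadjusted limma p of 0.05. Mmp3, stromelysin 1, which cuts proteoglycans and activates other MMPs, had 4.47, 4.32, 4.21 and 4.87 in the ursolic acid group, against 4.21, 4.36, 4.18 and 4.33 in control. Ursolic acid samples 1 and 4 lay above every control sample, and samples 2 and 3 lay within the control range. The difference was 0.20 ± 0.13 (SE), and 0.06 without ursolic acid sample 4. Mmp13, a collagenase, had a difference of 0.06 ± 0.09, Mmp7, the matrilysin of epithelia, one of 0.03 ± 0.07 and Mmp10, stromelysin 2, one of −0.01 ± 0.07. Mmp8, the neutrophil collagenase, also had one of −0.01 ± 0.07, and the small differences of Mmp8 and Mmp10 became positive under quantile normalization and median centring. Mmp1a, a mouse interstitial collagenase, averaged 3.34 ± 0.07 in the ursolic acid group and 3.48 ± 0.07 in the control group (SD, n = 4 each), with a difference of −0.14 ± 0.07 (SE). Thus Mmp12, Mmp3, Mmp13 and Mmp7, all with the element, were on the higher side, and Mmp1a, Mmp10, Mmp1b and Adam29, also with it, on the lower. The 8 members with the element had a median difference of 0.01, and the 29 with a promoter sequence and without it had one of −0.05.

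Among the remaining MMP genes none reached an unadjusted limma p of 0.05. Mmp11, stromelysin 3, had a difference of −0.05 ± 0.08 (SE) and Mmp19, expressed in many tissues, one of −0.03 ± 0.10. Mmp23 had 5.54, 5.33, 5.53 and 5.53 in the ursolic acid group, against 5.57, 5.43, 5.25 and 5.29 in control, and Mmp28, epilysin of skin and testis, had a difference of −0.13 ± 0.10. Mmp20, the enamel protease enamelysin, and Mmp21 had differences of −0.06 ± 0.08 and −0.09 ± 0.12. Over the 20 MMP genes the median difference was −0.03, with 7 higher and 13 lower, against a median of −0.01 over all rows.

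The TIMP genes overlapped between the groups, and 0 of 4 reached an unadjusted limma p of 0.05. Timp3, the inhibitor that binds to the matrix, had 8.37, 8.37, 8.34 and 8.60 in ursolic acid samples 1 to 4, against 8.30, 8.17, 8.22 and 8.39 in control samples 1 to 4. Only control sample 4 overlapped with the ursolic acid group, and the difference was 0.15 ± 0.08 (SE), with a 95% interval of −0.03 to 0.33. With the replicate number as a block Timp3 had an unadjusted limma p of 0.0423, and without ursolic acid sample 4 its difference was 0.09. Timp2, the partner of Mmp14 in the activation of proMMP2, had 7.99, 8.0, 8.05 and 8.34 in the ursolic acid group, against 8.03, 7.90, 7.98 and 8.13 in control. Apart from the high value of ursolic acid sample 4, the Timp2 values lay within the control range, and the difference was 0.08 ± 0.09, or 1.06-fold. Timp4, an inhibitor found mainly in heart, muscle and fat, had 7.94, 7.62, 7.96 and 7.84 in the ursolic acid group, against 8.05, 8.06, 7.81 and 7.72 in control, and its difference of −0.07 ± 0.10 was the only negative one of the 4. Timp1, induced in inflamed and regenerating tissue, had 4.32, 4.14, 4.34 and 4.23 in the ursolic acid group, against 4.23, 3.97, 4.36 and 3.89 in control, with the highest and the lowest value both in control samples. For each TIMP gene the 95% interval lay inside a 1.5-fold change.

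**Figure D2:**
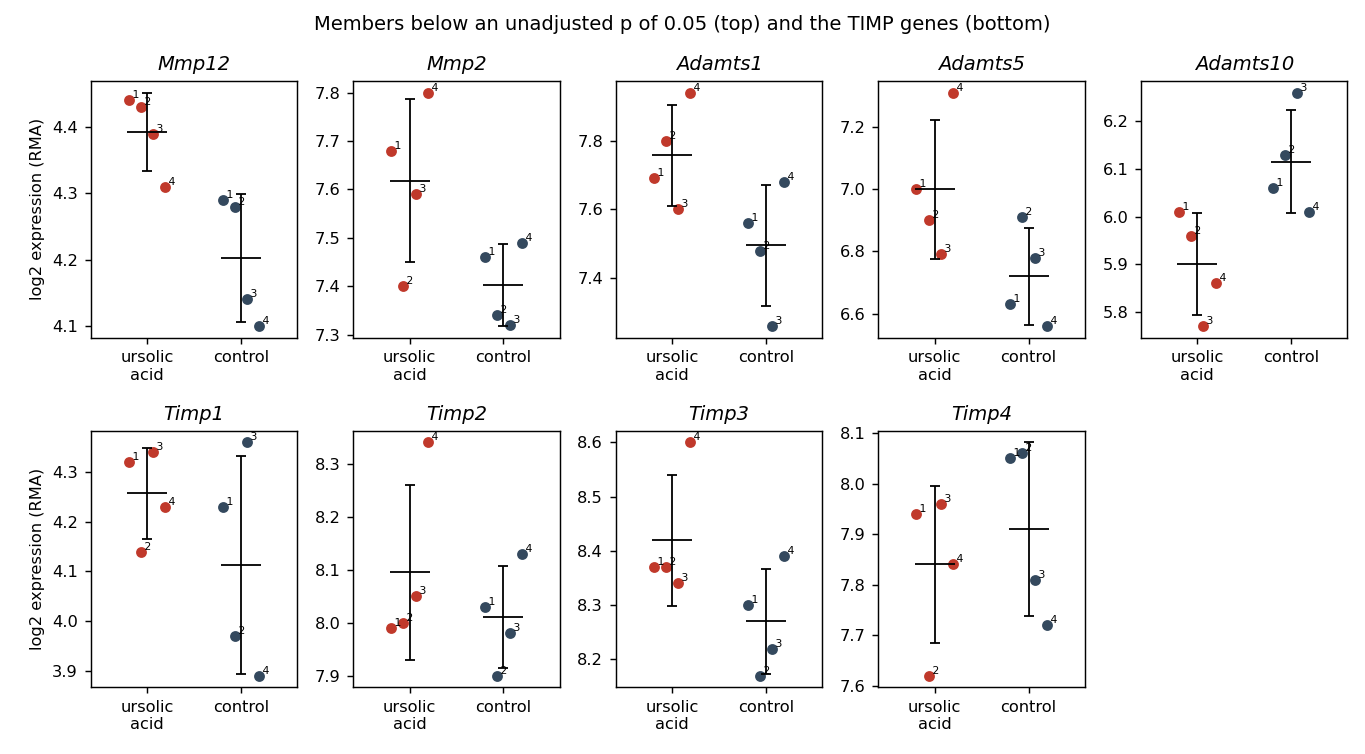
Log2 expression by sample, labelled 1 to 4, of the 5 members below an unadjusted p of 0.05 (top) and the 4 TIMP genes (bottom), with mean and SD (n = 4 each); the vertical axes differ between genes and do not start at 0. In Mmp12 the groups do not overlap, and ursolic acid sample 4 is the highest of 8 in Mmp2, Adamts1, Adamts5, Timp2 and Timp3.

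The ADAMTS family held 3 of the 5 members at an unadjusted limma p of 0.05, 2 higher and 1 lower. That is 3 of its 12 genes (25%), against 7.07% of all rows, with 0 at an adjusted p of 0.05. The 95% interval of each of the 3 lay inside a 1.5-fold change. Adamts1, which cuts versican and aggrecan, had 7.69, 7.80, 7.60 and 7.94 in the ursolic acid group, against 7.56, 7.48, 7.26 and 7.68 in control. The groups overlapped because control sample 4 lay above ursolic acid sample 3, and control sample 3 was the lowest of all. The difference was 0.26 ± 0.10 (SE), or 1.20-fold, with a limma adjusted p of 0.658. Adamts5, its neighbour on chromosome 16 and also a cutter of aggrecan and versican, had 7.0, 6.90, 6.79 and 7.31 in the ursolic acid group, against 6.63, 6.91, 6.78 and 6.56 in control. Ursolic acid samples 1 and 4 were above every control sample, and samples 2 and 3 lay inside the control range. The difference was 0.28 ± 0.12, or 1.21-fold, with a limma adjusted p of 0.688. Its unadjusted limma p of 0.0402 became 0.08 with the replicate number as a block.

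Adamts10, an enzyme tied to fibrillin microfibrils, went the other way. It had 6.01, 5.96, 5.77 and 5.86 in the ursolic acid group, against 6.06, 6.13, 6.26 and 6.01 in control. Ursolic acid sample 1 and control sample 4 met at 6.01, and all other ursolic acid values were below all control values. The difference was −0.21 ± 0.08 (SE), 0.863 of the control level, with a limma adjusted p of 0.631. The other 6 ADAMTS genes outside the proteoglycan group, among them Adamts7 and Adamts12, which cut the cartilage matrix protein COMP, and Adamts13, which cuts von Willebrand factor, had differences of −0.12 to −0.06. None of these reached an unadjusted p of 0.05. Adamts4, Adamts8 and Adamts20, further proteoglycan-cutting enzymes, had differences of −0.10 ± 0.11, 0.00 ± 0.08 and 0.05 ± 0.09.

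None of the 25 ADAM members reached an unadjusted limma p of 0.05. Among the 4 left-out rows with several symbols, that of Adam34, Adam34l and Gm5347 did. Its difference was −0.28 ± 0.11 (SE), with an unadjusted limma p of 0.033, an adjusted p of 0.659 and a row mean of 3.27. The other left-out rows had differences of 0.04, 0.05 and −0.10. Adam10, the sheddase that starts Notch signalling and cuts many surface proteins, had 6.45, 6.61, 6.44 and 6.75 in the ursolic acid group, against 6.12, 6.35, 6.58 and 6.47 in control. The groups overlapped, control sample 1 being the lowest of all, and the difference was 0.18 ± 0.11 (SE), or 0.09 without that sample. Adam9, a broadly expressed sheddase, averaged 7.24 ± 0.08 in the ursolic acid group and 7.17 ± 0.08 in the control group (SD, n = 4 each). Adam15, an ADAM of vessels and other tissues, averaged 6.38 ± 0.06 in the ursolic acid group and 6.45 ± 0.06 in the control group. Adam33, an ADAM of mesenchymal cells, had a difference of −0.13 ± 0.08, and Adam12, which is made by regenerating muscle and adipocyte precursors, one of −0.03 ± 0.09. Adam8, an ADAM of leukocytes, had one of −0.03 ± 0.10 and Adam28, of lymphocytes, one of −0.06 ± 0.07. Adam19, also called meltrin beta, had one of −0.05 ± 0.07.

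The ADAMs without an active metalloproteinase site, known as adhesion and synapse proteins of nervous tissue, also overlapped between groups. Adam23 had a difference of 0.14 ± 0.11 (SE), and its other row one of 0.11 ± 0.07. Adam11 and Adam22 had differences of −0.05 ± 0.07 and −0.02 ± 0.07, and that of Adam22 became positive under quantile normalization. Among the 14 ADAMs of testis and epididymis, 13 were lower and 1 was higher with ursolic acid, with a median of −0.10. Adam4 had the largest difference and the largest spread of all members. It had 5.57, 6.05, 4.99 and 5.14 in the ursolic acid group, against 5.38, 6.20, 5.88 and 6.01 in control. Ursolic acid samples 3 and 4 were the lowest, but control sample 1 lay below ursolic acid sample 1, and the difference was −0.43 ± 0.24 (SE) with a 95% interval of −0.95 to 0.10. It was −0.28 without ursolic acid sample 3 and −0.03 in the 4 samples whose description and title agree. Adam21, its relative on chromosome 12, had a difference of −0.17 ± 0.09, Adam1b one of −0.15 ± 0.07 and Adam1a one of −0.12 ± 0.15. Sequence between some of these testis genes is closely alike, so their rows may share signal.

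Small negative differences were more frequent among the members than among all rows. Of the 61 members 17 (27.9%) had a higher mean with ursolic acid, against 45.5% of all rows, and the members' median difference was −0.05 against −0.01. The split followed the row value: of the 16 members at or above the median row 8 were higher (all such rows 53.6%), and of the 45 below it 9 were higher (all such rows 37.5%). Under quantile normalization 22 members (36.1%) and 46.9% of all rows were higher, and under median centring 20 members (32.8%) and 52.4%. With a sample left out 17 to 22 members (27.9% to 36.1%) were higher, against 44.6% to 47.9% of all rows.

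**Figure D3:**
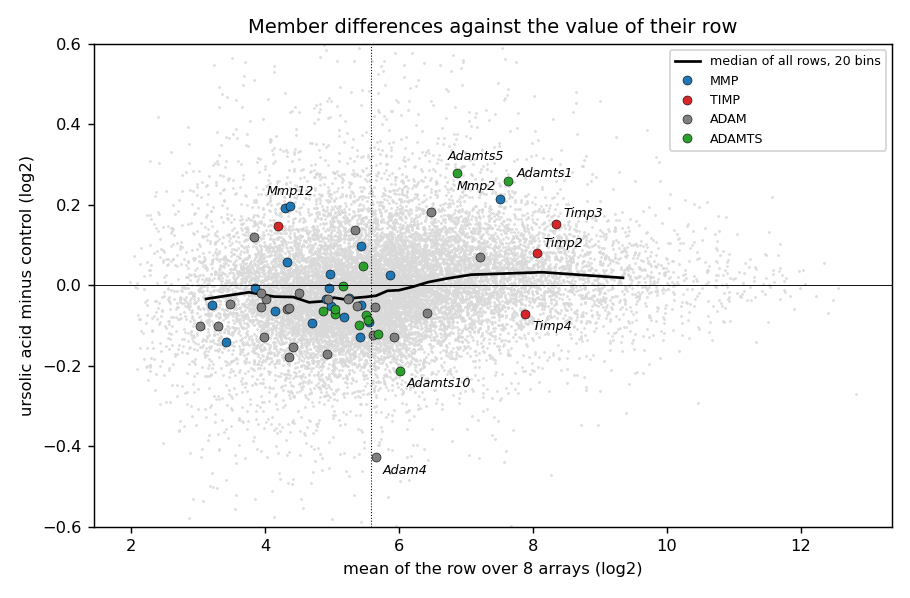
Difference in log2 expression, ursolic acid minus control, against the mean of the row over the 8 arrays, for all rows (grey; 43 rows lie beyond the plotted range of 0.6), the median of all rows in 20 bins (line) and the members by family; the dotted line marks the median row. Mmp2, Adamts1, Adamts5, Timp2 and Timp3 lie right of the median row and above the line, and most members left of it lie below 0.

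Among members with higher row values, ursolic acid sample 4 was often the highest. Of the 16 members at or above the median row, it was the highest of the 8 samples in 6 (37.5%), namely Timp2, Timp3, Mmp2, Adamts1, Adamts5 and Adam10, against 16% of all such rows. Without this sample the differences were 0.15 for Mmp2, 0.20 for Adamts1 and 0.18 for Adamts5. In that fit 3 members had an unadjusted limma p under 0.05, against 5.52% of all rows. They were Mmp12, Adam1b and Mmp1a, of which Adam1b and Mmp1a were lower. Over all 61 members the same sample was the highest of the 8 in 8 and the lowest in 18. Ursolic acid sample 2 was the highest in 0 and the lowest in 16. Control samples 1, 3 and 2 were the highest in 15, 14 and 10. Control sample 1 also stood apart over the whole array: it was the highest in 21.6% of all rows, against 9.89% to 13.6% for the other arrays, and had the lowest mean Spearman correlation with them (0.977). The interquartile range of control sample 1 was the narrowest (1.72), and that of ursolic acid sample 4 was the widest (1.92). Whether the width of the arrays has a part in these values was not tested beyond quantile normalization. That step gives all arrays 1 distribution and left differences of 0.18 for Mmp2, 0.22 for Adamts1 and 0.25 for Adamts5. In Mmp12, sample 4 was instead the lowest of the ursolic acid group.

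**Figure D4:**
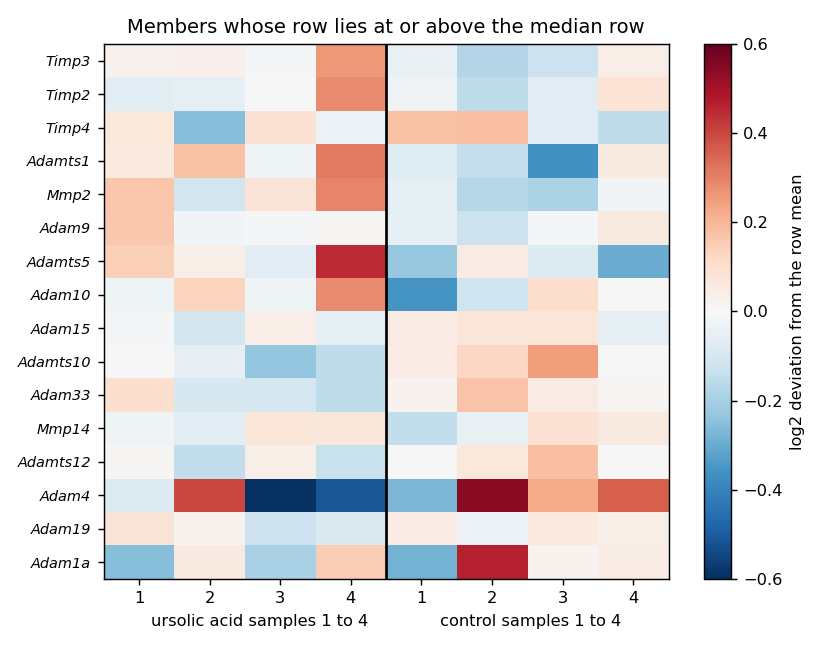
Deviation of each sample from the row mean (log2, red higher and blue lower) for the 16 members whose row lies at or above the median row, in ursolic acid samples 1 to 4 (left) and control samples 1 to 4 (right). Ursolic acid sample 4 is the highest of the 8 samples in 6 members, among them Adamts5, Adamts1 and Mmp2, and Adam4 varies most.

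Markers of 2 cell types that make these proteins are given in detail beside these values, and those of other cell types by their counts. The marker lists too were chosen with earlier results of these data known. In bulk muscle, fewer cells of a type and less RNA per cell cannot be told apart. Of 11 measured fibroblast markers, Dcn and Dpt the brightest, all were higher with ursolic acid, 3 of them (27.3%, against 7.07% of all rows) at an unadjusted limma p of 0.05 and 0 at an adjusted p of 0.05. Their median difference was 0.13, and their summed linear level was 4246 to 5223 in the ursolic acid group against 3984 to 4464 in control, so the groups overlapped. The mean deviation of these markers was 0.142, −0.144, 0.133 and 0.266 in ursolic acid samples 1 to 4, against −0.068, −0.165, −0.131 and −0.033 in control samples 1 to 4. Ursolic acid sample 2 thus lay below control samples 1, 3 and 4. Mmp2 was likewise highest in ursolic acid sample 4 and, within that group, lowest in sample 2. Of 14 macrophage markers, Tyrobp and C1qb the brightest, 13 were higher, 11 (78.6%) at an unadjusted p of 0.05 and 0 at an adjusted p of 0.05, with a median difference of 0.35 and a summed level of 1042 to 1285 in the ursolic acid group against 827 to 928 in control, the groups not overlapping. Their mean deviation was 0.124, 0.042, 0.253 and 0.258 in ursolic acid samples 1 to 4, against −0.138, −0.178, −0.249 and −0.113 in control samples 1 to 4. Within each group Mmp12 was lowest in sample 4, where this deviation was highest. The part of these markers in the values of Mmp2 and Mmp12 was not tested. Of 9 neutrophil markers 4 were higher and 1 had an unadjusted p of 0.05, and of 6 markers of satellite cells and regeneration 1 was higher and 0 had such a p. Of 8 endothelial markers 2 were higher (median −0.05), of 8 pericyte and smooth muscle markers 2 (median −0.07) and of 8 tendon and cartilage markers 2 (median −0.10). In each of these 3 lists 0 had such a p. Of 4 mast cell markers 3 were higher and 1 had such a p. No marker is at 0 on this scale, where the lowest fibroblast and macrophage row means were 5.44 and 4.88.

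Genes around the proteases were followed in lists of activators and inhibitors, ADAM partners, shed proteins, ADAMTS-like proteins, ADAMTS substrates and inducers. Together 112 of them were measured, with 16 at an unadjusted limma p of 0.05, 9 higher and 7 lower. That is 14.3% against 7.07% of all rows, and 0 passed when adjusted over all rows. As the lists were chosen with earlier results of these data known, their shares are not independent of those results. Of 26 activators and inhibitors 4 (15.4%) had such a p, 3 higher and 1 lower. Tll1, a tolloid-like protease that trims procollagen, had a difference of 0.19 ± 0.07 (SE) without overlap, and Thbs1, a matrix glycoprotein that activates latent TGF-beta, one of −0.46 ± 0.19, which was −0.25 without control sample 1. Of 18 ADAM partners 1 was higher and 2 lower at such a p (16.7%). Lgi2, a secreted ligand of the Adam22 family, had a difference of 0.28 ± 0.09. Sh3pxd2b, an adaptor of the protrusions that carry MMPs, had one of −0.20 ± 0.08.

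Of 31 proteins shed by ADAMs, 3 were higher and 1 lower at an unadjusted limma p of 0.05 (12.9%, against 7.07% of all rows). The macrophage receptor Cd163, also in the macrophage list, had a difference of 0.42 ± 0.09 (SE) and App, the amyloid precursor cut by Adam10, one of 0.21 ± 0.08, both without overlap. Of 15 ADAMTS substrates and matrix partners 2 were higher and 0 lower at that p (13.3%). They were the small proteoglycans Lum, also in the fibroblast list, and Bgn, with differences of 0.61 ± 0.11 and 0.35 ± 0.09. The large substrates of Adamts1 and Adamts5 were not among these 2. Vcan (versican) and Acan (aggrecan), named after their values were seen, had differences of 0.01 ± 0.13 and −0.12 ± 0.08. Adamtsl1 and Adamtsl2, matrix proteins related to ADAMTS enzymes without their protease part, had differences of 0.08 ± 0.07 and −0.11 ± 0.11, and 0 of 4 measured ADAMTS-like genes reached that p. Adamdec1, an ADAM-like gene of macrophages outside the naming rule of the family, had one of −0.01 ± 0.07.

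Of 18 inducers of metalloproteinase genes, 0 were higher and 3 lower at an unadjusted limma p of 0.05, with a median difference of −0.11. That is 16.7% called, against 7.07% of all rows, of which 3% were called lower. The ETS factors Etv4 and Ets1 had differences of −0.25 ± 0.08 (SE) and −0.26 ± 0.11. Without control sample 3 the difference of Ets1 was −0.19, with an unadjusted limma p of 0.128. Of the AP-1 genes, named after their values were seen, Fos, which did not reach that p, had a difference of −0.15 ± 0.07 without overlap, Junb one of −0.26 ± 0.11 and Jun one of 0.04 ± 0.07. Without control sample 1 the difference of Junb was −0.16. The mean deviation of the inducers was −0.022, −0.040, −0.054 and −0.091 in ursolic acid samples 1 to 4, against 0.153, 0.036, 0.018 and −0.001 in control samples 1 to 4, and was thus highest in control sample 1. The 8 members with an AP-1 element, of which 6 are printed above, were 4 higher and 4 lower.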

How the data were processed

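Gastrocnemius RNA of 8 samples was measured on 1-colour arrays. The authors deposited RMA values, taken here as log2, and per the submitters' processing notes the build was mm9. RMA combines background correction, normalization across arrays and a summary of probes; the sources used here name neither its program nor any filter on rows. Base 2 was taken from the range of the values. Rows were named by the platform annotation, and all 61 members matched the RefSeq table.

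All rows entered 1 linear model fit in limma 3.58.1 under R 4.3.3 (moderated by eBayes, without trend or covariates, two-sided, Benjamini-Hochberg over 16755 rows). Intervals are at 95%. Precision is limited by having 4 arrays a group, and p-values reflect only the spread between pooled samples, which may be technical. In 20 simulations of this comparison over 16755 rows, 200 rows were changed and normal noise was drawn for each row independently. Rows were called at an adjusted p of 0.05. Of rows changed by 0.5 (log2) 62.3% were recovered with the right sign, and of rows changed by 1 94.1%. On average 5.85% of the called rows were unchanged ones. Deviations shared by the rows of an array were not simulated. Changes as small as those of the members (−0.43 to 0.28) were not simulated either, so these rates do not describe them. The members and lists were chosen with earlier results of these data known. Named members were the TIMP genes, those at an unadjusted p of 0.05, the 10 with the highest row mean and, in each of 11 role groups, the 3 with the highest mean and the 1 with the smallest p; for each related list, the 2 genes with the smallest p were named. Mmp1b, Mmp3, Mmp20, Mmp21, Mmp24, Adam8, Adam12, Adam19, Adam28, Adam29, Adamts4, Adamts8 and Adamts13 fall outside this rule and were chosen after their values were seen. Alternatives were the replicate block, other normalizations, row filters, variance models, array weights, uses of the description and each sample left out.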

Additional observations from a re-analysis of the deposited data

Results flagged for a closer look

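In 72 groups of 4 values (36 named members, each in both groups), a single sample stood apart in 4, and by chance about 1 group in 20 would show this. The value in brackets is the distance to the closest sample as a share of the whole spread of that group. Timp3 in ursolic acid sample 4 was the highest of its group, at 8.60 against 8.37 in the next (0.867). Mmp23 in ursolic acid sample 2 was the lowest, at 5.33 against 5.53 (0.924). Adam9 in ursolic acid sample 1 was the highest, at 7.37 against 7.22 (0.864). Adam15 in control sample 4 was the lowest, at 6.36 against 6.46 (0.832).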

How the results depend on the processing

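In the alternatives run 0 members passed an adjusted p of 0.05, and 0 passed at a threshold of 0.10; all rows passing numbered 27 among rows at or above the median, 23 with array weights, 12 with a variance trend and robust moderation, and 1 without moderation. The smallest adjusted p in 627 alternative fits of the 36 named members, which did not include the grouping by description, was 0.365. In these fits 26 of the 36 kept their sign. Signs were compared after rounding to 2 decimals, and a difference that rounded to 0 counted as kept. The 5 members at an unadjusted p of 0.05 became 3 under quantile normalization (2 higher), where 7.28% of all rows passed. At a threshold of 0.01 there were 0, against 2.05% of all rows. With samples grouped by description there were 8 (2 higher, 6 lower), where 12.5% of all rows passed. Without moderation 1 was higher and 3 lower, where 7.2% of all rows passed. With array weights 4 were higher and 3 lower (8.79% of all rows). In samples with concordant labels 3 were higher and 3 lower (10.7% of all rows). With each sample left out in turn there were 1 to 5, with 1 to 3 higher and 0 to 3 lower, against 5.52% to 8.59% of all rows. The count of 1 was without control sample 3 (5.76% of all rows), where only Timp1, not among the 5, was below 0.05. Without ursolic acid sample 4 there were 3 (5.52% of all rows). Members without overlap numbered 2 under quantile normalization, where the share of all rows was not computed, and 2 under median centring (3.28%, against 4.34% of all rows). Among rows at or above the median there were 0, against 6.33% of all such rows. With the 2 against 2 concordant samples there were 34 (55.7%, against 47.4% of all rows). With a sample left out there were 1 to 6 (1.64% to 9.84%, against 6.34% to 9.6% of all rows). The count of 6 was without control sample 4, where the share of all rows was 9.6%. The median difference was −0.01 over the 16 members at or above the median row, of which 8 were higher, and −0.10 with concordant labels. Of the related genes, 10 had an unadjusted limma p under 0.05 among rows at or above the median, where 10.2% of all rows did. With a sample left out there were 8 to 17 of 112, against 5.52% to 8.59% of all rows. There were 9 without control sample 3 and 8 without ursolic acid sample 4.

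Signs turned for small differences. Under quantile normalization Adam22 had 0.01, Mmp8 0.02 and Mmp10 0.02; under median centring Mmp8 and Mmp10 had 0.01; with array weights Mmp8 had 0.01. With concordant labels Timp1 had −0.11, Adam1a 0.23, Mmp13 −0.04, Adamts20 −0.04 and Adam22 0.06. With a sample left out, ranges were −0.02 to 0.06 for Mmp14, −0.08 to 0.04 for Mmp19, −0.05 to 0.03 for Mmp8, −0.04 to 0.04 for Mmp10, −0.24 to 0.01 for Adam1a, −0.05 to 0.02 for Adam22, −0.04 to 0.11 for Adamts20 and −0.09 to 0.01 for Mmp16. The causes were not tested. Same-numbered samples deviated together with correlations of 0.018 to 0.186, so the numbers were not taken to pair them; with the replicate block, 0 members passed an adjusted p of 0.05 and 5 (4 higher, 1 lower) had an unadjusted p under 0.05, with Adamts5 lost (p = 0.08 by limma) and Timp3 gained (p = 0.0423).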
